A study of Rattus norvegicus with 6 samples.

Results

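The respiratory chain of RBL-2H3 cells was described gene by gene through its nuclear-encoded subunits, in cells given PIO and in control cells. Members were chosen by symbol alone: the Nduf genes of the a, b, c, s and v series, the Sdh genes, the Uqcr genes, Cyc1, Cycs, the Cox4 to Cox8 genes and the Atp5 genes. The rule found 86 genes of the 22601 listed, with no symbol present more than once. They comprised 35 genes of complex I, 4 of complex II, 9 of complex III, 1 of cytochrome c, 17 of complex IV and 15 of complex V. Ndufa4 and Ndufa4l2 (2 genes), Cox7a2l (1 gene), and Atp5s and Atp5sl (2 genes) were kept apart, because Ndufa4 is now counted to complex IV and the others are not core subunits of the enzyme in their name. Of the 86, 78 averaged at least 0.5 FPKM over the libraries and were tested; the 8 others are Cox4i2, Cox6a2, Cox6b2, Cox7a1, Cox7b2, Cox8b, Cox8c and Ndufa4l2. Subunits encoded by mitochondrial DNA were not analysed here.

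RBL-2H3 cells derive from a basophilic leukemia of the rat and stand in for mast cells in many laboratories. The PIO group was 3 libraries (PIO replicates 1 to 3) of cells given 10 µM PIO for 6 h, and the control group was 3 libraries (control replicates 1 to 3) without it. All 6 carry the genotype label WT and come from the same line, and the series title calls the agent an agonist of PPARγ, a ligand-activated nuclear receptor of lipid genes. Neither a vehicle nor a time is recorded for control cells, and an effect of these cannot be told apart from one of PIO. Whether replicates were separate cultures is not labelled, so the p-values reflect the spread among 6 libraries and that spread may be technical.

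The respiratory chain carries electrons in the inner mitochondrial membrane and uses the energy to pump protons. Complex I takes electrons from NADH and complex II takes them from succinate, and both pass them to ubiquinone. Complex III hands them to cytochrome c and complex IV hands them to oxygen, and complex V, the ATP synthase, makes ATP as protons flow back. Several subunits of complex IV exist in forms that are made mainly in heart and skeletal muscle, lung or testis. PPARγ and its coactivator Ppargc1a are known for their part in the control of mitochondrial genes in fat tissue.

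Values are FPKM, fragments scaled to gene length and to the reads of the library, so levels can be compared between genes. The library totals behind them were 14048202 to 14322720 reads in PIO and 14105533 to 15084729 in control. The labelled cell type was visible in its markers: the IgE receptor chain gene Ms4a2 had 806 to 847 FPKM in PIO libraries and 856 to 871 in control libraries, and the histidine decarboxylase gene Hdc had 289 to 304 in PIO and 294 to 303 in control. The row that RefSeq calls Mcpt1, a mast cell protease gene listed here as Mcpt2, had 18.8 to 23.1 FPKM in PIO and 16.1 to 20.4 in control. The rows named Mcpt1 (Vch in RefSeq) and Tpsab1 were listed at 0 in all 6 libraries. A 0 in every library can be a row that was not quantified: Surf1, an assembly factor of complex IV that most cells use, was also listed at 0 in all 6. The 17 markers of mast cells and basophils summed to 4921 to 5060.4 FPKM in PIO and 4886 to 5083 in control. Of the 15 tested, the granule transport gene Rab27b and the transcription factor gene Mitf had the smallest p, with log2 fold changes of -0.465 ± 0.085 and -0.209 ± 0.046 (SE; limma adjusted p = 0.212 and 0.270). The 12 markers of fibroblasts and macrophages summed to 6.63 to 6.92 FPKM in PIO and 6.81 to 7.59 in control, and the 12 of muscle to 0.903 to 1.08 FPKM in PIO and 0.880 to 1.65 in control. Of the fibroblast and macrophage list only Col3a1 and Cd68 were tested, at -0.132 ± 0.069 and 0.043 ± 0.103 (limma adjusted p = 0.460 and 0.882).

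Promoters are shown first for the subunit 8 genes of complex IV, because this family holds 1 highly expressed gene, 1 with a single read and 1 listed at 0. They are followed by Ndufa5 and Ndufv3, the complex I genes with the smallest p-values, and by Atp5i, which held 3 of the motifs searched. Each line gives the 250 bases upstream of the annotated start, 5′ to 3′ on the gene's strand, from RefSeq on the rat assembly GRCr8. Capitals mark a match to a motif, in either orientation: GCGCA and GCGC with any 1 base between for NRF1, CCGGAAG for ETS factors such as GABP, and AAGATGGC for YY1. NRF1, GABP and YY1 are transcription factors known from mammalian respiratory genes.
Cox8a, chr1:213833624-213833873, minus strand: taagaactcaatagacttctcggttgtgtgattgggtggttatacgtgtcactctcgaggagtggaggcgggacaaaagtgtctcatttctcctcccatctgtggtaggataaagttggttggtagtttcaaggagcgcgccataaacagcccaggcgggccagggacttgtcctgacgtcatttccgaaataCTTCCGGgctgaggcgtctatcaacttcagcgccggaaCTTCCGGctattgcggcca
Cox8b, chr1:205408274-205408523, minus strand: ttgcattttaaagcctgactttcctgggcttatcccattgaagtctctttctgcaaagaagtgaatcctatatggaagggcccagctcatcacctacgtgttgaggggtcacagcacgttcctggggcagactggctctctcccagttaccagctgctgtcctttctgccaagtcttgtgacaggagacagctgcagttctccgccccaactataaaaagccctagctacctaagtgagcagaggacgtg
Cox8c, chr6:127793129-127793378, plus strand: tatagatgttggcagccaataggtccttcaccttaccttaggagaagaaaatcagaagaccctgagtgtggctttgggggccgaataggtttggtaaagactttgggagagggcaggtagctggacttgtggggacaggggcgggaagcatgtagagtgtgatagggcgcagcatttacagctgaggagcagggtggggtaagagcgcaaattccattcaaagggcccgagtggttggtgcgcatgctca
Ndufa5, chr4:53971236-53971485, minus strand: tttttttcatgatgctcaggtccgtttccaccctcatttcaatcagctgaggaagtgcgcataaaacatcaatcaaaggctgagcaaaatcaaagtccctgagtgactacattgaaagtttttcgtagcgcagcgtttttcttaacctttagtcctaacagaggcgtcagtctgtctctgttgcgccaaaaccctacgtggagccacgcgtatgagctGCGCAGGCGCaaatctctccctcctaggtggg
Ndufv3, chr20:9613536-9613785, plus strand: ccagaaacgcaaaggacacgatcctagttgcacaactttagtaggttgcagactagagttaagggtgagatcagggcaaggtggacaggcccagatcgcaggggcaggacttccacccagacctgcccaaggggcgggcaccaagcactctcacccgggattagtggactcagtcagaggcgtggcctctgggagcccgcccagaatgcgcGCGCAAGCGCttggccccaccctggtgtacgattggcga
Atp5i, chr14:1464610-1464859, plus strand: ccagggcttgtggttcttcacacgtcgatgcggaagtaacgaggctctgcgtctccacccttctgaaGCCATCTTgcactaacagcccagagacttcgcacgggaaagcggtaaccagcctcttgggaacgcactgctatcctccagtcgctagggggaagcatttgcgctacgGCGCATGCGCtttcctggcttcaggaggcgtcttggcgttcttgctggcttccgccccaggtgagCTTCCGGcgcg

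RefSeq held a promoter for 72 of the 86 members. Windows of 300 bases, 250 before the start and 50 after it, were searched on both strands. Of the 66 tested members with a window, 13 (19.7%) held the NRF1 motif, against 11.5% of the 8384 windows of all genes tested and 4.7% of all 27457 windows. The ETS motif was in 19 of them (28.8%), against 20.8% and 9.2%, and the YY1 motif was in 14 (21.2%), against 6.5% and 3.4%. ETS and YY1 matches can share the letters AAG. The repeat of AGGTCA and AGGTCA with any 1 base between, the classic PPAR element, was in 0 of the 72 members' windows and in 0.1% of all windows. These matches describe letters in a window, and binding was not measured.

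By complex, the NRF1 motif was in 6 of 30 tested windows of complex I, 1 of 4 of complex II, 1 of 6 of complex III, 0 of 8 of complex IV and 5 of 14 of complex V. The ETS motif was in 6, 2, 3, 4 and 4 of the same windows. The 6 windows of members not tested had a median of 9 CG dinucleotides, while the tested members had 20 and all genes tested had 21. All 27457 windows had a median of 7. In the lines above, Cox8a carries ETS matches and the Cox8b and Cox8c sequences carry none of the motifs. Other members did not divide in this way. The windows of the expressed genes Cox5a, Cox7b and Atp5b held none of the motifs, and that of the barely detected Ndufa4l2 held a YY1 match. A link between motifs and level was not tested. Cox8a had 272, 268 and 281 FPKM in PIO replicates 1 to 3 and 257, 244 and 258 FPKM in control replicates 1 to 3, while Cox8c was listed at 0 in all 6 libraries.

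Transcript levels differed more between complexes than between groups. The median member of complex I had 86.0 FPKM in PIO and 82.8 in control (means of the library medians). Complex II had 93.3 FPKM in PIO and 88.2 in control, and complex III 109.9 in PIO and 105 in control. Complex V had 284 FPKM in PIO and 269 in control, and complex IV was highest, at 308 FPKM in PIO and 291 in control. The order of the medians, low to high, was I, II, III, V and IV in every library. Complexes I and II were neighbours whose ranges over the libraries overlapped (81.0 to 87.2 and 84.9 to 94.5 FPKM), as did those of V and IV (258 to 294 and 284 to 315 FPKM). The summed level was largest in complex V, at 5383 ± 97.5 FPKM in PIO and 5133 ± 176 in control (SD, n = 3 each), followed by complexes I and IV.

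The single most abundant member was Atp5b, the catalytic beta subunit of the ATP synthase, with 1326, 1356 and 1316 FPKM in PIO and 1319, 1275 and 1283 in control. Cox4i1, a large regulatory subunit of complex IV, had 729, 769.9 and 784 FPKM in PIO and 778, 704 and 714 in control. Both overlapped between the groups. Among the other complexes the highest were Uqcrh, the hinge protein of complex III, Ndufb9, a membrane arm subunit of complex I, and Sdha, the flavoprotein of complex II. Ndufb9 had 322, 337 and 354 FPKM in PIO and 341, 323 and 313 in control.

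Of the 78 tested members 47 averaged at least 100 FPKM and 8 averaged under 20 FPKM. Several of the low ones have a described copy with its own row, and whether reads were split between them was not tested. Atp5f1, subunit b of the ATP synthase, averaged 7.22 FPKM, while a row described as like it, LOC100911417, averaged 14.6. The row named Ndufs6 averaged 0.991 FPKM and its GeneID belongs to a pseudogene in RefSeq (Ndufs6-ps1), while the row RefSeq calls Ndufs6 (LOC679739) averaged 6.74. These rows were chosen after their values were seen.

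All members together took 2.82% to 2.88% of the summed FPKM in PIO libraries and 2.70% to 2.85% in control libraries, so the ranges overlapped.

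**Figure D1:**
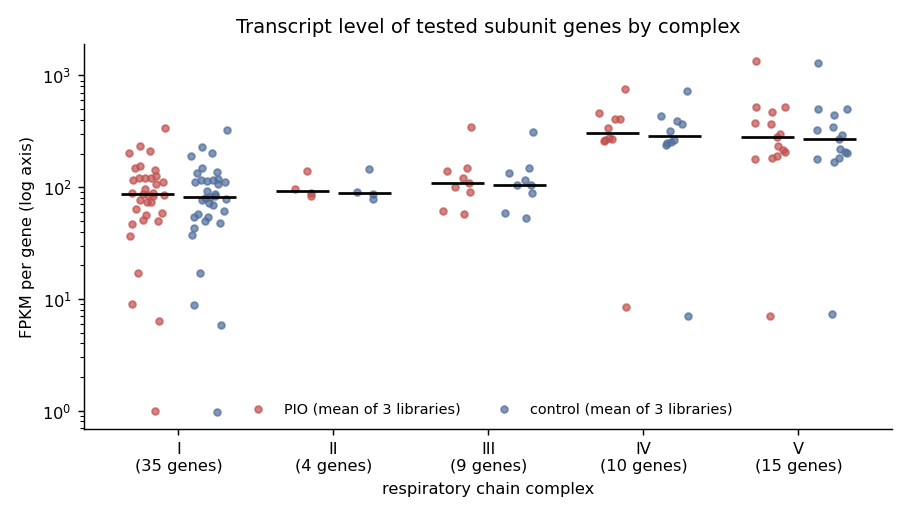
Mean FPKM of each tested subunit gene (log axis) by complex, with PIO left of control; each point is a gene, the mean of 3 libraries, and the black line is the median over genes. Complexes IV and V sit above I, II and III in both groups, and PIO and control lie nearly level in each.

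The tissue isoforms divided sharply within each family. The ubiquitous gene had at least 227 FPKM, and its tissue-restricted partners had at most 3 reads in a library or were listed at 0 throughout. Such a 0 in all libraries, in Cox6a2, Cox6b2 and Cox8c, cannot be told apart from a row that was not quantified, as for Surf1. Cox4i2, the lung form of subunit 4, had 1, 3 and 2 reads in PIO and 1, 1 and 2 in control, and made 0.0141 ± 0.00672% of the subunit 4 level in PIO and 0.00964 ± 0.00433% in control (SD, n = 3 each). Cox4i1 made the rest.

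Among the heart and skeletal muscle forms, Cox6a2 was listed at 0 in every library, while Cox6a1 had 444, 461 and 478 FPKM in PIO and 446, 426 and 431 in control. Cox7a1 had 0, 2 and 0 reads in PIO and 2, 1 and 0 in control, against 255, 268 and 268 FPKM in PIO and 267, 247 and 227 in control for Cox7a2. A row that RefSeq calls Cox7a1 (LOC687508) was equally low, at 0.0146 to 0.0447 FPKM in PIO and 0.0139 to 0.0426 in control. Cox8b had a single read, in PIO replicate 3.

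Of the testis forms, Cox6b2 and Cox8c were listed at 0 in all 6 libraries, and Cox7b2 had 0, 1 and 3 reads in PIO and 0, 1 and 0 in control. Cox7b, the ubiquitous counterpart of Cox7b2, had 249, 256 and 268 FPKM in PIO and 248, 241 and 229.8 in control. Cox6b1 has no row under that name, and the row that RefSeq calls Cox6b1 (LOC688869) had 448, 483 and 477 FPKM in PIO and 455, 427 and 417 in control. Ndufa4l2, a hypoxia-linked relative of Ndufa4, had 1 read in all, in control replicate 3. No test of these counts was made, because no library has more than 3 reads.

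ATP synthase subunit c, the ring that turns as protons pass, is made from 3 genes that differ in their import sequence and give one mature protein, and all 3 were active. Atp5g2 gave 50 ± 0.676% of their summed level in PIO and 50.2 ± 1.44% in control. Atp5g3 gave 29.2 ± 1.04% in PIO and 29.1 ± 0.637% in control, and Atp5g1 gave 20.9 ± 0.746% in PIO and 20.7 ± 0.806% in control (SD, n = 3 each). The shares did not differ beyond their spread, with two-sided exact permutation p = 0.90, 1.00 and 0.70 for Atp5g2, Atp5g3 and Atp5g1, each 1.00 after Benjamini-Hochberg adjustment over the 3 tests. The smallest p that 3 against 3 libraries allow is 0.1.

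**Figure D2:**
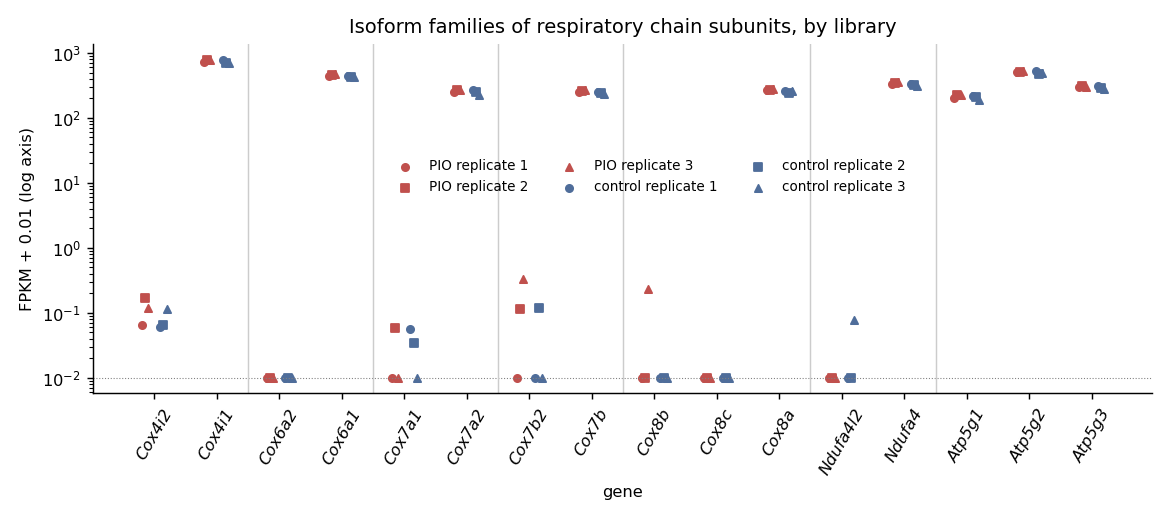
FPKM of each isoform in each library (log axis, with a small constant added so that 0 can be drawn on the dotted line), PIO in red and left, control in blue; grey lines separate the families. Ubiquitous forms and the subunit c genes lie between 191 and 784 FPKM and tissue-restricted forms are listed at or near 0 in all 6 libraries.

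With PIO, no member passed the threshold, and most lay slightly above control. Of the 78 members, 72 had a higher and 6 a lower mean level in PIO on the log2 scale, with a median log2 fold change of 0.062 (4.4%). In bulk RNA, fewer cells of a kind and less RNA per cell cannot be told apart. Over all 10410 genes tested the median was 0.009, with 54% above 0. By limma with Benjamini-Hochberg adjustment over all genes, 0 members were called, against 4 of all genes (0.0384%), and the smallest adjusted p of a member was 0.270. At an unadjusted p under 0.05, 17 members (21.8%) were higher and 0 lower, against 6.36% of all genes higher and 6.15% lower. All 3 PIO values lay above all control values in 16 members (20.5%), and below them in 1, Ndufs1. The shares of all genes are 10.5% and 8.09%. Among other genes under 1000 bases, 14.8% were higher at an unadjusted p under 0.05, and 12.6% had every PIO value above every control value. With at least 40 FPKM as well, these shares were 20.7% and 18.8%.

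The count of 72 moved with the scaling, as did the share of all genes above 0. It was 69 with median-of-ratios scaling (51.4% of all genes), 65 with quantile normalization (51.6%) and 63 with TPM scaling (42.5%). The members' median less that of all genes was 0.053 as first given, 0.053 with median-of-ratios, 0.041 with quantile and 0.052 with TPM scaling. After correction for gene length 48 members and 50.8% of all genes were above 0, and the members' median was 0.014. The number with unadjusted p under 0.05 also moved with single libraries. It was 32 without control replicate 1, 18 without PIO replicate 1, 5 without PIO replicate 2 or control replicate 3, 3 without control replicate 2 and 2 without PIO replicate 3. Without control replicate 1 the median was 0.101. The median level of the members, relative to the mean of the 6 libraries, was 0.002, 0.029 and 0.066 in PIO replicates 1 to 3 and 0.019, -0.042 and -0.075 in control replicates 1 to 3 on the log2 scale. Control replicate 1 lay above PIO replicate 1, so the groups overlapped.

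**Figure D3:**
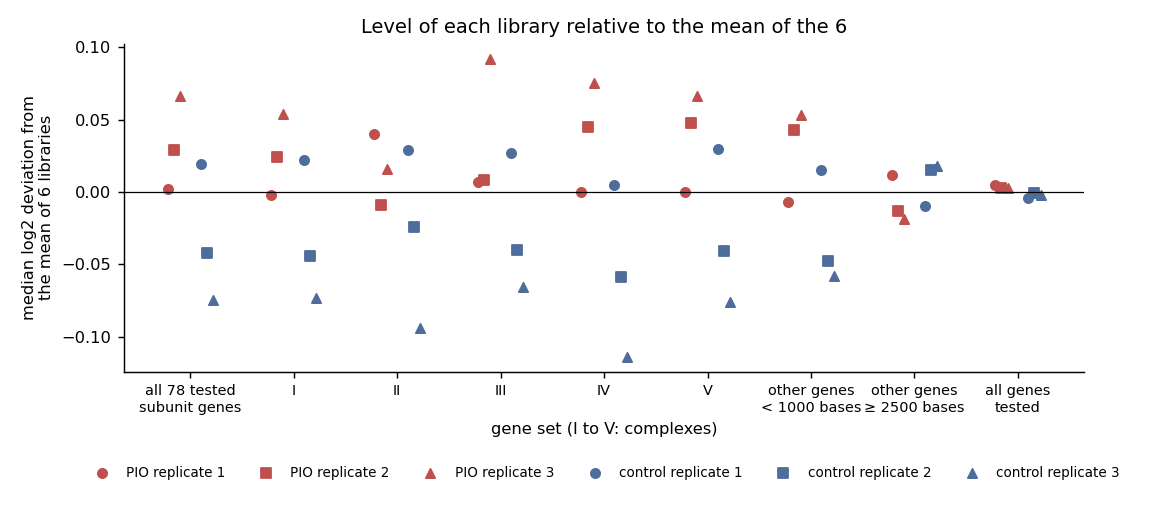
Median log2 deviation of each library from the mean of the 6 libraries, for all 78 tested members, for complexes I to V, for other short and long genes and for all genes tested; red marks are PIO (left), blue marks control. Control replicate 1 sits among the PIO libraries for the members, and other genes under 1000 bases follow the members while genes of 2500 bases or more run the other way.

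Summed over its tested genes, each complex lay a few percent higher in PIO. Complex I summed to 3491 ± 115 FPKM in PIO and 3318 ± 137 in control (5.2% higher), and complex II to 411 ± 5.69 in PIO and 400 ± 12.8 in control (2.6%). Complex III summed to 1178 ± 31.1 FPKM in PIO and 1123 ± 49.1 in control (4.9%), complex IV to 3447 ± 97.1 in PIO and 3253 ± 155 in control (6.0%), and complex V, with the sums given above, was 4.9% higher (SD, n = 3 each). In each of the 5 complexes the sum in control replicate 1 lay within the range of the PIO libraries, so the groups overlapped. As a share of all summed FPKM, complex II took 0.08% in every library. Complex I took 0.67% to 0.70% in PIO and 0.65% to 0.69% in control. The complex I sum includes Ndufa12, described below, at 151 FPKM in PIO replicate 3 and 47.7 to 63.8 FPKM in the other libraries.

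Complex I had 33 of 35 members higher, with a median log2 fold change of 0.058. At an unadjusted p under 0.05, 5 (14.3%) were higher, against 6.36% of all genes. The share was 14.8% in other genes under 1000 bases, and 20.7% in those of them with at least 40 FPKM. The median of complex I was 0.007 after correction for gene length and 0.099 without control replicate 1. Its 7 core subunits, which carry the redox centres and the quinone site, had a median of 0.040 (6 higher), and the 28 accessory subunits 0.062 (27 higher). Their median lengths were 1088 and 604 bases, and the part of length in this difference was not tested. Ndufv3, a small accessory subunit of the NADH-oxidizing end, had 61.3, 61.6 and 66.8 FPKM in PIO and 58.8, 57.7 and 56.3 in control, a log2 fold change of 0.132 ± 0.044 (SE) with limma adjusted p = 0.340. Ndufa5, an accessory subunit of the matrix arm, had 139.8, 153 and 150.1 FPKM in PIO and 139, 130 and 135 in control (0.133 ± 0.044, limma adjusted p = 0.340). Ndufa8, an accessory subunit on the outer face of the membrane arm, had 89.2, 82.8 and 87.2 FPKM in PIO and 82.5, 79.7 and 76.8 in control (0.116 ± 0.043, limma adjusted p = 0.366). In all 3 genes, chosen for the smallest p in the complex, every PIO value lay above every control value, with means 9.7%, 9.8% and 8.4% apart. Ndufs1, the largest core subunit and holder of several iron-sulphur clusters, was the only member with every PIO value below every control value: 59.3, 57.0 and 60 FPKM in PIO and 60.8, 61.1 and 61.2 in control (-0.054 ± 0.035, limma adjusted p = 0.541). It was named after its values were seen.

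The largest log2 fold change of any member was that of Ndufa12, also named after its values were seen, and it rested on 1 library. This accessory subunit had 58.0, 54.6 and 151 FPKM in PIO and 51.8, 63.8 and 47.7 in control, with 448, 430 and 1169 reads in PIO. The fold change of 0.529 ± 0.342 (limma adjusted p = 0.540) was 0.057 without PIO replicate 3. PIO replicates 1 and 2 lay within the range of the control libraries. The described copy of Ndufa12, LOC100910710, had 1.85, 1.69 and 1.58 FPKM in PIO and 1.23, 1.32 and 1.51 in control, without overlap. Its reads were 14, 13 and 12 in PIO and 10, 10 and 12 in control (0.254 ± 0.104, SE, limma adjusted p = 0.382). PIO replicate 3 was the lowest of its PIO libraries, but with so few reads whether it follows Ndufa12 cannot be told. Of all 35 members of the complex, 8 (22.9%) lay higher in PIO without overlap. The share was 10.5% in all genes and 12.6% in other genes under 1000 bases. In those of them with at least 40 FPKM it was 18.8%. Ndufa13, a further subunit, has no row under that symbol; the row RefSeq calls Ndufa13 (LOC100911483), likewise named after its values were seen, had 231, 242 and 239 FPKM in PIO and 229.8, 224 and 210.1 in control, without overlap.

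Complex II, which also belongs to the citric acid cycle, had 3 of 4 members higher and a median of 0.067 (0.029 after correction for gene length, 0.028 without control replicate 3 and 0.102 without control replicate 1). Sdhb, the iron-sulphur subunit, had 94.9, 102 and 94.4 FPKM in PIO and 93.5, 88.9 and 87.7 in control (0.11 ± 0.044, limma adjusted p = 0.379), without overlap. The membrane anchors Sdhc (84.5, 81.1 and 85.2 FPKM in PIO and 81.9, 80.2 and 74.2 in control) and Sdhd (92.8, 86.8 and 88.6 in PIO and 91.5, 85.8 and 82.1 in control) overlapped. The flavoprotein Sdha lay lower in PIO: 143, 134 and 144 FPKM in PIO and 147, 143 and 145 in control (-0.044 ± 0.038, limma adjusted p = 0.638).

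Complex III had 8 of 9 members higher, a median of 0.062 and no member without overlap. The median was 0.023 after correction for gene length, 0.030 without PIO replicate 3, 0.034 without control replicate 3 and 0.097 without control replicate 1. Uqcrh had 334, 357 and 356 FPKM in PIO and 335, 319.9 and 291 in control (0.148 ± 0.054, limma adjusted p = 0.365), PIO replicate 1 lying at the level of control replicate 1. Uqcrb, a small supernumerary subunit, had 54.1, 59.1 and 58.9 FPKM in PIO and 54.6, 53.6 and 51.4 in control (0.107 ± 0.046, limma adjusted p = 0.396). Cyc1, the haem protein that reduces cytochrome c, had 137, 135 and 145 FPKM in PIO and 137, 132 and 130.2 in control (0.062 ± 0.039, limma adjusted p = 0.537). The one lower member, Uqcrc2, a core protein, had 99.5, 99.8 and 99.7 FPKM in PIO and 104, 99.4 and 108 in control. Cytochrome c itself, Cycs, had 133, 145 and 128 FPKM in PIO and 129, 136 and 123 in control (0.059 ± 0.056, limma adjusted p = 0.670), with overlap.

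Complex IV was the one complex in which all 10 tested members had log2 fold changes above 0, with a median of 0.099. The largest was that of Cox7a2l2, named after its values were seen, at 0.229 ± 0.139 (SE, limma adjusted p = 0.519). It had 10.8, 7.09 and 7.53 FPKM in PIO and 7.03, 7.52 and 6.57 in control, on 43 to 67 reads. All 10 stayed above 0 with median-of-ratios, quantile and TPM scaling, and 9 did without control replicate 2 or without control replicate 3. After correction for gene length 7 did, where the median was 0.027. Log2 fold changes above 0 were also found in 54% of all genes tested. Among other genes under 1000 bases with at least 40 FPKM the share was 88.9%. The median length in complex IV was 482.5 bases, the shortest among the complexes. The difference of complex IV from the other complexes was not tested. Cox8a, the smallest subunit, had the values given above, a log2 fold change of 0.113 ± 0.036 with limma adjusted p = 0.339. Cox5a, a matrix-side subunit, had 329.8, 344 and 348 FPKM in PIO and 329, 321 and 303 in control (0.102 ± 0.040, limma adjusted p = 0.375). Cox7b, a single-pass membrane subunit, gave 0.104 ± 0.042 (limma adjusted p = 0.379). In all 3 genes, chosen for the smallest p in the complex, every PIO value lay above every control value, in Cox5a and Cox7b only just. Of the 10 members, 3 (30.0%) lay higher without overlap. The share was 10.5% in all genes, and 18.8% in other genes under 1000 bases with at least 40 FPKM. Ndufa4, counted to this complex, had 334, 350.4 and 353 FPKM in PIO and 333, 322 and 315 in control (0.096 ± 0.036, limma adjusted p = 0.371), while Cox7a2l, a factor of supercomplex assembly, had 123, 133 and 134 FPKM in PIO and 125, 123 and 131 in control (0.039 ± 0.045, limma adjusted p = 0.731).

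Complex V had 14 of 15 members higher, with a median of 0.058 (0.011 after correction for gene length and 0.097 without control replicate 1). Its peripheral stalk, the stator that keeps the head from turning, held the member with the smallest p: Atp5h, subunit d, with 361, 378 and 387 FPKM in PIO and 342, 326 and 315 in control (0.195 ± 0.043, limma adjusted p = 0.270). Every PIO library lay above every control library, by 14.5% between the means. Atp5j, coupling factor 6 of the same stalk, had 169.6, 184 and 190.3 FPKM in PIO and 170.1, 169 and 163 in control (0.114 ± 0.046, limma adjusted p = 0.379), with PIO replicate 1 below control replicate 1. Atp5j2, subunit f of the membrane part, had 356, 366 and 383 FPKM in PIO and 354, 347 and 329.8 in control (0.10 ± 0.041, limma adjusted p = 0.379), without overlap. The 4 stalk genes had a median of 0.107, the 5 genes of the catalytic head 0.046, the 3 subunit c genes 0.054 and the 3 genes of subunits e, f and g 0.058. Their median lengths were 736.5, 1325, 762 and 432 bases in the same order, and the part of length was not tested. The 1 lower member of the complex, Atp5f1 of the stalk, gave -0.059 ± 0.126 (SE, limma adjusted p = 0.862). The inhibitor of the enzyme, listed as Atpif1, had 647, 644 and 639 FPKM in PIO and 623, 598 and 607 in control (0.080 ± 0.030, limma adjusted p = 0.371), without overlap.

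**Figure D4:**
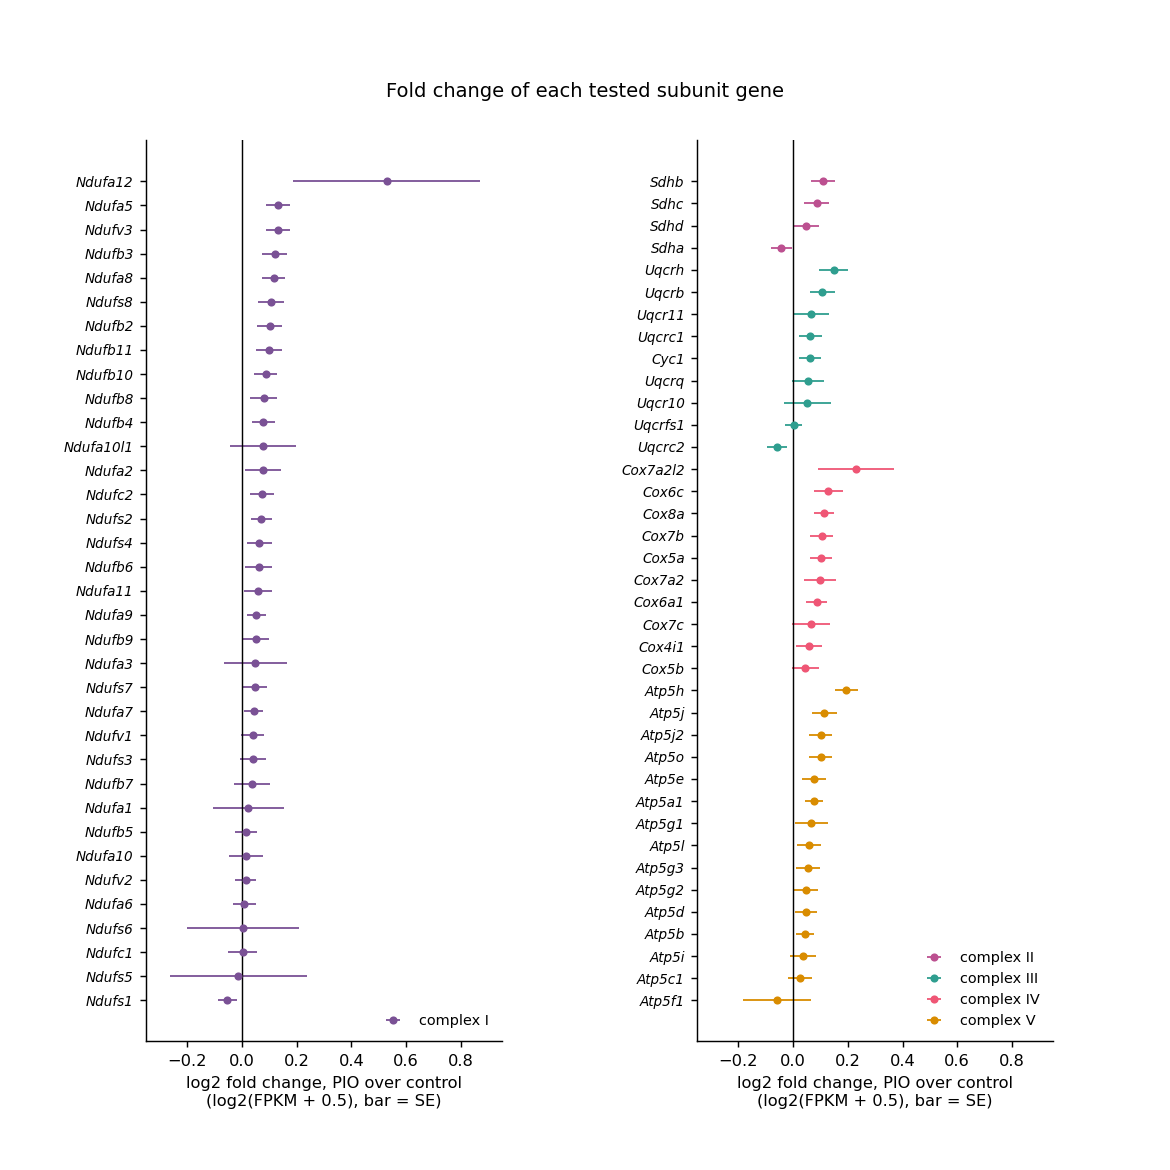
Log2 fold change of PIO over control for each tested gene of complexes I (left) and II to V (right), ordered within each complex, with the SE as a bar. Most points lie just right of 0, and Ndufa12 at 0.529 has an SE of 0.342.

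Gene length moved with these fold changes, and its part in the result was not tested. The members are short: their median length behind the FPKM was 739.5 bases, against 2790.5 for all genes tested. Among other genes under 1000 bases, 625 of 862 (72.5%) were higher in PIO with a median of 0.063, and of those with at least 40 FPKM, 327 of 368 (88.9%) with a median of 0.067. Among other genes of 2500 bases or more, 44.8% were higher, with a median of -0.012. Members under 1000 bases had a median of 0.077 (48 of 49 higher) and longer members 0.048 (24 of 29 higher). The short genes outside the chain varied between libraries much as the members did: for other genes under 1000 bases the median deviations were -0.007, 0.043 and 0.053 in PIO replicates 1 to 3 and 0.015, -0.048 and -0.058 in control replicates 1 to 3.

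**Figure D5:**
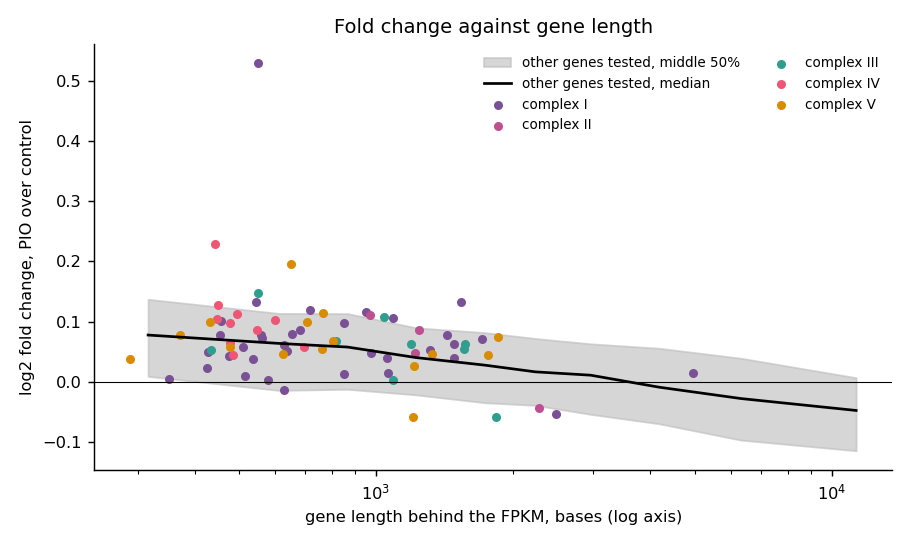
Log2 fold change of PIO over control against gene length (log axis); coloured points are members by complex, the black line is the median of the other genes tested and the grey band their middle range. Members lie at the short end, mostly along the band, and the median of other genes slopes downward with length.

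The genes around the chain were described by lists. None of their genes was called. Of the 45 tested assembly factors, 32 (71.1%) were higher, with a median of 0.062, against 54% of all genes. At an unadjusted p under 0.05, 7 (15.6%) were higher, against 6.36% of all genes. Their median was 0.029 after correction for gene length, with 28 of 45 higher, 0.039 without PIO replicate 3 and 0.096 without PIO replicate 1. Cox20, an assembly factor of complex IV, had 15.7, 14.9 and 16.3 FPKM in PIO and 13.3, 13.1 and 11.8 in control (0.290 ± 0.062, limma adjusted p = 0.270), and Higd2a, another, had 89.1, 89.8 and 92.1 FPKM in PIO and 80.0, 83.2 and 83.8 in control (0.133 ± 0.035, limma adjusted p = 0.297). Of 11 genes of ubiquinone synthesis, 7 were higher (median 0.058), and 5 of 11 without control replicate 1 (median -0.013). The median was 0.022 after correction for gene length, 0.012 without PIO replicate 1 and 0.018 without control replicate 3. Coq6, a hydroxylase of that pathway, had 10.4, 11.3 and 11.2 FPKM in PIO and 8.85, 8.93 and 9.38 in control (0.267 ± 0.057, limma adjusted p = 0.270), and Coq9 gave 0.134 ± 0.043 (limma adjusted p = 0.339). In Cox20, Higd2a, Coq6 and Coq9, chosen for the smallest p in their lists, the groups did not overlap. Higher without overlap were 7 assembly factors (15.6%) and 2 genes of ubiquinone synthesis (18.2%), against 10.5% of all genes.

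Of 6 other electron donors to ubiquinone, 5 were higher (median 0.028). Etfb, which passes electrons from fatty acid oxidation on towards ubiquinone, had 249.9, 258 and 254 FPKM in PIO and 234, 234 and 220.3 in control (0.148 ± 0.036, limma adjusted p = 0.280). Its partner Etfa gave 0.046 ± 0.038 (limma adjusted p = 0.627). Leaving out PIO replicate 1 gave these 6 a median of 0.016, and leaving out PIO replicate 3 gave 0.056; with TPM scaling 3 of the 6, and 42.5% of all genes, were higher. In the tricarboxylic acid cycle 6 of 13 genes were higher, with a median of -0.001. Dld, the dihydrolipoamide dehydrogenase, gave -0.069 ± 0.040 (limma adjusted p = 0.503) and Cs, citrate synthase, -0.063 ± 0.039 (limma adjusted p = 0.529). Of 14 regulators of mitochondrial gene expression, 7 were higher (median -0.004). Esrra, a nuclear receptor of mitochondrial genes, had 15.7, 16.1 and 16.4 FPKM in PIO and 14.6, 14.3 and 14.6 in control (0.141 ± 0.044, limma adjusted p = 0.331), and Polrmt, the mitochondrial RNA polymerase, gave 0.106 ± 0.046 (limma adjusted p = 0.402). Ppargc1a, the coactivator best known for raising mitochondrial genes, had 0, 1 and 1 reads in PIO and 2, 0 and 0 in control.

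All 16 tested genes of the integrated stress response, which can be set off by mitochondrial faults, were lower in PIO, with a median of -0.250. Of all genes tested, 54% lay above 0. At an unadjusted limma p under 0.05, 3 of the 16 were lower, and 6.15% of all genes. Without control replicate 3, 15 of 16 were lower and the median was -0.065. Atf4, its transcription factor, named after its values were seen, had 243, 239.6 and 255 FPKM in PIO and 279, 277 and 617 in control. The highest value was in control replicate 3, which also had the lowest level of 42 of the 78 members. Other genes under 1000 bases were lowest there too, with a median log2 deviation of -0.058, against -0.075 for the members. A link between Atf4 and the members was not tested. Mthfd2, a mitochondrial folate enzyme, gave -0.247 ± 0.080 and Psat1, a serine synthesis enzyme, -0.247 ± 0.083 (both limma adjusted p = 0.340). Mthfd2 had 104, 102 and 102 FPKM in PIO and 114, 113 and 141 in control. Psat1 had 80.9, 78.3 and 80.9 FPKM in PIO and 90.0, 86.4 and 110.5 in control. Without control replicate 3, 64 of 78 members were higher, with a median of 0.044.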

How the data were processed

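RNA-seq of 6 libraries (3 PIO, 3 control) was used. The deposited values are FPKM per gene, made by the authors; per the labels' protocols, libraries were made with a stranded mRNA kit. The submitters' processing notes name DESeq, HTSeq and Cufflinks, the aligners BWA 0.7.5a and HISAT2 2.2.1.0, SAMtools 1.3.1, FastQC 0.11.5 and Trimmomatic 0.36; their order and roles are not given in these sources. They also name GRCh38, which is a human build, although gene names are of the rat, so the build is unclear and coordinates are printed only for RefSeq promoters.

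FPKM values were whole multiples of 1 read (tolerance 1e-04 of a read) for all 15429 genes above 0, which gave lengths, library totals and reads; recovered reads were 99.5% of the totals. Where a gene has few reads, a factor common to them cannot be seen. For 27 symbols that had become dates the symbol was restored through the GeneID. Reads carry no molecular identifiers. Of a row at 0 in all libraries no length was recovered, and no limit on its reads is given.

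Genes averaging 0.5 FPKM or more entered limma 3.58.1 (R 4.3.3) as log2(FPKM + 0.5), with a variance trend and no term but the group, two-sided, Benjamini-Hochberg adjustment at 0.05 over 10410 genes. On this scale the change of a low gene is understated. Of the members, 78 passed the filter and 8 did not: Cox4i2, Cox6a2, Cox6b2, Cox7a1, Cox7b2, Cox8b, Cox8c and Ndufa4l2. The code was tested on simulated data. Python 3.11.15, pandas 2.3.3, numpy 2.4.6, scipy 1.17.1 and matplotlib 3.10.9 were used for tables and figures. Genes named by rule are the 3 members with the smallest p in complexes I, III, IV and V, and all of complex II. Added to them are Cyc1, Cycs, the isoform families, Cox7a2l, Atpif1 and the highest member of each complex. Of other lists they are the 2 genes with the smallest p. Some are given with values per library, others with a share, a fold change or reads alone. Members and lists were chosen with earlier results of these data known. Alternatives were other pseudocounts (0.1 and 1), filters, scalings, variance fits, sample weights, a replicate block, correction for gene length (a lowess curve of span 0.3 on log2 length, removed per library), voom on the recovered reads, and each library left out in turn.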

Additional observations from a re-analysis of the deposited data

How the results depend on the processing

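No member was called under any of the alternatives run, voom on the recovered reads included. The number of all genes called was 4, and 1 with no filter on low values, 2 with no variance trend, 7 with a robust variance fit and 7 with voom; the cause was not tested. After correction for gene length the median log2 fold change was 0.014 for all members, 0.007 for complex I, 0.027 for complex IV and 0.011 for complex V; there Atp5g2 (-0.016), Atp5g3 (-0.001), Cox4i1 (-0.002) and Ndufb9 (-0.010) changed sign, and Atp5b did with quantile normalization (-0.037). The 17 members at an unadjusted p under 0.05 were 12 with voom, 10 with median-of-ratios or quantile scaling, 8 with the replicate block, 6 with TPM scaling, 4 with no variance trend and 2 after length correction. For the 30 tested members followed singly, the other 595 values kept their direction and side of the threshold; over all 78, 72 higher became 63 with TPM scaling, 65 with quantile normalization and 48 after length correction. Leaving out 1 library in turn, the median of complex I ranged over 0.041 to 0.099 and that of all members over 0.044 to 0.101, with 64 to 71 of 78 higher.

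With the replicate number as a block, 3 genes in all and 0 members were called and 72 of 78 members were higher. The labels do not say that numbers pair the libraries, and deviations of same-numbered libraries correlated at -0.07, 0.03 and 0.08; PIO replicates 1 and 2 correlated best with a control of another number. Depth limits the tissue-restricted isoforms, which had at most 3 reads in a library or were listed at 0.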

Other observations

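Among genes with a mean over 5 FPKM, only Ndufa12 and Pomp, a proteasome assembly factor, were over 2 times every other library in PIO replicate 3. Pomp had 14.7, 14.3 and 38.0 FPKM in PIO and 10.6, 9.72 and 13.2 in control. The same measure found 6 genes in control replicate 3, among them the stress genes Atf4, Chac1, Ddit3 and Trib3. Ndufs5, a complex I subunit, had 28.3, 46.4 and 35 FPKM in PIO and 51.4, 25.3 and 36.3 in control, and its RefSeq pseudogene Ndufs5-ps2 (LOC100363268) had 88.5, 126 and 101 FPKM in PIO and 120.0, 79.1 and 106 in control, in nearly the same order of libraries. Whether reads are shared between them was not tested.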
